A study of Mus musculus with 21 samples.

Results

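The cerebella of young Cstb-/- mice were compared with those of wild type mice at postnatal day 7 (P7), an age before the mice show symptoms. The 8 arrays used here were the 4 knockout and the 4 wild type arrays labelled P7, out of 21 arrays in the series, and the members of the comparison were chosen by these labels alone. The arrays were of the Affymetrix Mouse Genome 430 2.0 type, and the RNA was that of whole cerebellum. The knockout mice carried the Cstb tm1Rm allele on the 129SvJ strain in every cell from conception, no treatment is named for either group, and wild type littermates served as controls. By the labels, knockout arrays 1, 2 and 3 came from males and knockout array 5 from a female, whereas wild type array 3 came from a male and wild type arrays 1, 2 and 4 from females, so that sex was partly confounded with genotype. Per the methods, the authors had set aside 1 more P7 array of each genotype after a principal component check of how the samples of a genotype grouped, and these are not analysed here, so that the spread within the genotypes is that of arrays kept after this check.

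Cystatin B, the product of Cstb, inhibits cysteine cathepsins, the proteases of lysosomes, and its loss in people causes progressive myoclonus epilepsy of Unverricht-Lundborg type, for which the Cstb-/- mouse is a model. In the first postnatal weeks the mouse cerebellum grows by division of granule cell precursors in its outer layer. Their daughters leave the cycle, migrate past the Purkinje cells and form synapses, while oligodendrocytes begin to myelinate the axons. A whole cerebellum also holds glia, vessels, the meninges on its surface, and choroid plexus, the secretory epithelium of the ventricles that makes cerebrospinal fluid. In RNA of whole tissue, fewer cells of a type and less RNA of a gene per cell cannot be told apart.

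The deposited values were log2 signals centred so that every probe set had a median of 0 over the 8 arrays. Each value below is given relative to the mean of the 4 wild type arrays, so that a difference of -1 stands for a halved signal, and no level can be compared between probe sets. Knockout array 5 and wild type array 3 had the widest spread over all probe sets, with SDs of 0.230 and 0.225 against 0.122 to 0.167 on the other 6 arrays. A probe set counted as changed where limma gave an adjusted p (Benjamini-Hochberg) under 0.05 and the fold reached 1.3. By this rule 3 of 45037 probe sets were called (0.00666%), all of them lower in the knockout. All adjusted p below are from limma over these 45037 probe sets unless another test is named.

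Both probe sets of Cstb fell in the knockout. On one of them, knockout arrays 1, 2, 3 and 5 had -2.31, -2.25, -2.21 and -2.45, and wild type arrays 1, 2, 3 and 4 had 0.07, -0.11, 0.12 and -0.08. The difference was -2.31 (SE 0.08) with an adjusted p = 4.71e-07, a 4.95-fold lower signal. On the other probe set the knockout arrays lay between -3.57 and -2.72, and the difference was -3.10 (SE 0.15, adjusted p = 8.99e-06). The targeted gene thus went with the genotype label on all 8 arrays.

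The remaining probe set belonged to Sulf1. This sulfatase acts outside the cell and removes 6-O-sulfate groups from heparan sulfate and so changes how this polysaccharide binds growth factors. Its signal was -1.15, -1.21, -1.47 and -1.46 in knockout arrays 1, 2, 3 and 5 and -0.12, -0.07, 0.16 and 0.02 in wild type arrays 1 to 4. Sulf1 fell by 1.32 on the log2 scale (SE 0.10, adjusted p = 0.000364), a 2.50-fold lower signal, and the genotypes were separated by a gap wider than the spread within either of them. The difference was -1.41 among the female arrays and -1.43 among the male arrays. The other probe sets of the gene had -0.34 (SE 0.12) and 0.01 (SE 0.10), with overlapping genotypes in both, so that the fall rests on 1 of 3 probe sets. Of 28 measured genes of heparan sulfate synthesis, editing and core proteins, 17 had higher values, against 55.0% of all 18193 genes, and their median difference was 0.02, close to the median of 0.0147 over all genes. The paralogous sulfatase Sulf2 had 0.18 (SE 0.10) with overlapping genotypes. The cell surface proteoglycan glypican 2, Gpc2, had -0.35 (SE 0.10), and its knockout arrays lay between -0.42 and -0.22, below all wild type arrays (adjusted p = 0.351).

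Besides the called probe sets, many passed the fold alone. Counting all, 735 reached a fold of 1.3, and 594 of these had an unadjusted p under 0.05 in limma, 211 of them higher and 383 lower in the knockout. The genes named next are the 10 higher and the 10 lower ones with the smallest p among probe sets past that fold whose genotypes did not overlap. Over all probe sets, genotypes did not overlap with higher knockout values in 2.80% and with lower knockout values in 2.84%. Apart from Cstb and Sulf1, none of these 20 genes passed the adjusted threshold, and the probe sets were chosen for their difference, so that their values are a description. Of all the genes named in the text by the rules for naming, 51 had more than 1 probe set, and in 32 of these all probe sets lay on the same side of 0, while in 19 they did not.

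Several of the lower genes belong to choroid plexus or extracellular matrix. Kcne2, an accessory subunit of potassium channels in the choroid plexus epithelium, had -1.23, -2.76, -2.90 and -2.62 in knockout arrays 1, 2, 3 and 5 and lay between -0.35 and 0.38 in the wild type arrays, a difference of -2.38 (SE 0.31) with an adjusted p = 0.0837. Car12, a membrane-bound carbonic anhydrase, had -0.75, -1.08, -1.18 and -1.24 in the same order and a difference of -1.06 (SE 0.14) with an adjusted p = 0.0837. Knockout array 1 was the nearest to the wild type arrays in both genes. The other probe sets of Car12 had 0.17 with overlap and -0.15 without overlap. Knockout array 1 was also the nearest for Prr32, which had -0.65, -1.26, -1.35 and -1.65 and a difference of -1.22 (SE 0.18), and for the collagen VIII chain gene Col8a1, which had -0.49, -0.99, -1.14 and -0.93 and a difference of -0.89 (SE 0.13). The other probe sets of Col8a1 had -0.68 without overlap and 0.08 with overlap. Nid2 encodes nidogen 2, which links laminin to type IV collagen in basement membranes. Its knockout arrays had -0.50, -0.57, -0.69 and -0.75 and its wild type arrays lay between -0.17 and 0.12, with a difference of -0.63 (SE 0.09) and an adjusted p = 0.0855.

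The other lower genes had separate roles. Pi4k2a, a kinase that makes phosphatidylinositol 4-phosphate on endosomes, had -0.80, -0.95, -0.79 and -0.43 in the knockout arrays, with knockout array 5 the nearest to the wild type arrays, and a difference of -0.74 (SE 0.11). Without knockout array 5 its probe set was called, with -0.85 and an adjusted p = 0.0436. That array is the only knockout female, so that this fit had knockout males alone. The difference of Pi4k2a was -0.45 among the female arrays and -0.79 among the male arrays. The second probe set of Pi4k2a had -0.05 (SE 0.09). Kdm6a is an X-linked histone H3 lysine 27 demethylase, so its value has to be read beside sex. The knockout female had -0.51 and the knockout males lay between -0.75 and -0.59, whereas the wild type male had -0.05 and the wild type females lay between -0.15 and 0.25. The lower values thus went with genotype within each sex, and the difference was -0.64 (SE 0.10) with an adjusted p = 0.129. The other probe sets of Kdm6a had -0.34 without overlap, and 0.15 and -0.20 with overlap. Chek1, the checkpoint kinase of DNA damage and stalled replication, had -0.48 (SE 0.07) on this probe set. A second of its 5 probe sets also had no overlap, with -0.38 (SE 0.08), and the other 3 had values from -0.16 to 0.16.

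The higher genes included several of neurons. Pvalb, the calcium buffer parvalbumin of Purkinje cells and inhibitory interneurons, had 0.72, 0.75, 0.71 and 0.70 in the knockout arrays and -0.19, -0.02, 0.40 and -0.20 in the wild type arrays. The knockout values lay within 0.05 of each other, and wild type array 3 lay nearer to them than the other wild type arrays did. The difference was 0.72 (SE 0.12) with an adjusted p = 0.137, and without wild type array 3 it was 0.86 with an adjusted p = 0.00277, past the threshold. That array is the only wild type male, so that this fit had wild type females alone. The difference of Pvalb was 0.84 among the female arrays and 0.32 among the male arrays. Gng13, a G protein gamma subunit found in Purkinje cells, had 0.60, 0.42, 0.58 and 0.52 against 0.03, -0.02, 0.10 and -0.11, and with an adjusted p = 0.0922 it had the smallest p of the higher genes. Its difference was 0.53 (SE 0.07), and its second probe set had 0.12 (SE 0.12) with overlap. Adam11, a neuronal metalloprotease-like protein without protease activity, had 0.53 (SE 0.08), and its other probe set had 0.09 (SE 0.10) with overlap. Fat2, a giant cadherin of granule neurons, had 0.51, 0.42, 0.52 and 0.50 against wild type values between -0.15 and 0.16, and a difference of 0.49 (SE 0.08). Prkce, an isoform of protein kinase C, had 0.58 (SE 0.09), and 3 other probe sets of the gene had from 0.04 to 0.48.

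The remaining higher genes were Klk1, Il16, Osbpl9, Agt and Cnp. Klk1, the kallikrein that releases kinins, had 0.78, 0.48, 0.53 and 0.74 in the knockout arrays and -0.06, -0.06, 0.22 and -0.10 in the wild type arrays, with wild type array 3 above the other 3. Its difference was 0.63 (SE 0.10). Its other 3 probe sets had 0.53, 0.16 and -0.02, and kallikreins form a family of near-identical genes, so that the gene behind these signals is uncertain. Il16, the precursor of a cytokine that also has a neuronal form, had 0.51 (SE 0.08), and a second probe set had 0.47 (SE 0.11) without overlap, while the other 2 had 0.04 and 0.07 with overlap. For Osbpl9, an oxysterol-binding protein, the difference of 0.53 (SE 0.09) rests on 1 of 5 probe sets, since the other 4 lay between -0.13 and 0.03. Agt, the angiotensinogen that astrocytes make in brain, had 0.40, 0.48, 0.62 and 0.31 in the knockout arrays and lay between -0.07 and 0.06 in the wild type arrays, with a difference of 0.45 (SE 0.08). Cnp, an enzyme of myelin-forming cells, had 0.49 (SE 0.09), and its other 2 probe sets had 0.32 and 0.54. The adjusted p of the higher genes from Adam11 to Cnp lay between 0.129 and 0.199.

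**Figure D1:**
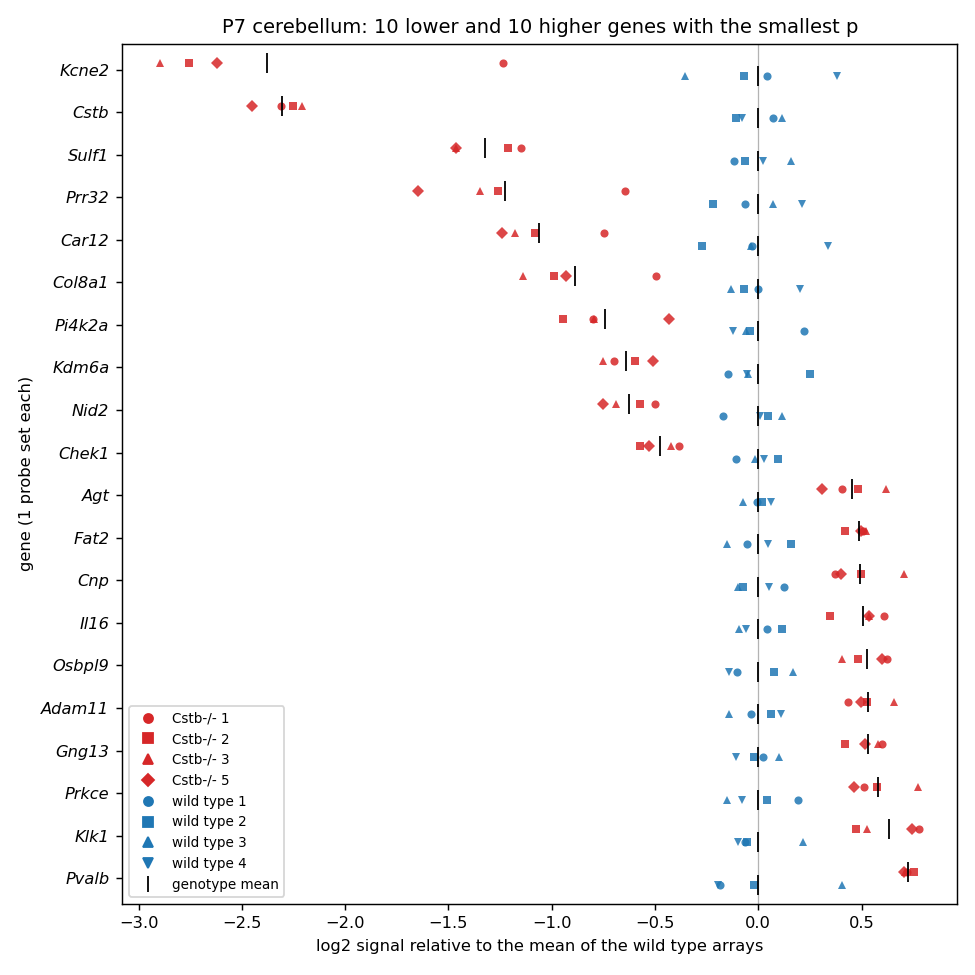
Log2 signal of the 20 genes named above on each P7 array, relative to the mean of the wild type arrays (horizontal axis, log2), with 1 probe set per gene on the vertical axis. Red points are knockout arrays, blue points wild type arrays, and black ticks the genotype means. The knockout arrays of Sulf1 lie between -1.47 and -1.15, and knockout array 1 (red circle) stands nearest to the wild type arrays for Kcne2, Prr32, Car12 and Col8a1.

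Choroid plexus genes had the lowest median of the 36 gene lists examined. Of 18 genes on the list 16 had a probe set of their own. Of these 16, 14 had lower values, 12 had an unadjusted p under 0.05 and 10 had no overlap between the genotypes, while over all 18193 genes 5.13% were lower at that p and 2.86% had lower knockout values without overlap. Their median difference was -1.05. None passed the adjusted threshold on the 8 arrays.

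The knockout arrays were unlike each other in these genes. The mean over the 16 genes was -0.40, -1.56, -1.87 and -1.66 in knockout arrays 1, 2, 3 and 5 and lay between -0.18 and 0.22 in the wild type arrays. Ttr, the transthyretin that carries thyroid hormone in cerebrospinal fluid, had -0.31, -4.50, -5.88 and -5.96 in the knockout arrays and 0.01, -0.05, -0.13 and 0.17 in the wild type arrays. Knockout array 1 thus had a Ttr signal close to that of wild type, and the other 3 lay at -4.50 or lower. Folr1, the folate receptor through which the choroid plexus passes folate to the cerebrospinal fluid, had -0.55, -2.72, -3.21 and -2.48 and again a wide gap between knockout array 1 and the rest. For Aqp1, the water channel of the apical membrane, knockout array 1 lay at -0.15, inside the range of the wild type arrays, and the other knockout arrays lay between -2.52 and -2.45. The potassium channel gene Kcnj13 had -0.27, -2.13, -2.31 and -2.02, the calmodulin-like gene Calml4 -0.78, -2.88, -3.15 and -2.76, and Sostdc1, a secreted antagonist of BMP and Wnt signals, -0.83, -2.61, -2.86 and -2.91. In each of these 3, knockout array 1 lay below all wild type arrays and above all other knockout arrays.

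Further genes of this epithelium had smaller differences on the probe set read for each gene. The chloride channel protein gene Clic6 had -1.03 (SE 0.22), the tight junction gene Cldn2 -0.74 (SE 0.19), and the bicarbonate transporter gene Slc4a5 -0.60 (SE 0.11), without overlap in each of them. The other probe set of Clic6 had a larger difference, -2.29. Otx2, the homeobox factor that specifies choroid plexus, had -0.53, -0.04, -2.36 and -0.69 against 0.62, -0.0018, -1.01 and 0.39, and its genotypes overlapped widely. Kl, which encodes Klotho, had -0.38 (SE 0.15). Values near 0 were found for Lmx1a (0.02), a factor of the embryonic roof plate, and for Tmem72 (0.03), with overlap in both. The members therefore did not all go along with Ttr.

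Leaving out knockout array 1 changed the calls. Without it, 38 of 45037 probe sets were called, all of them lower, and 10 of the 28 genes they named were on the choroid plexus list. That list held 16 of the 18193 genes measured and was chosen with earlier results of these data known. In the fit without knockout array 1, Kcne2 had -2.76 (adjusted p = 2.61e-05), Ttr -5.45 (adjusted p = 2.5e-05), Folr1 -2.80 (adjusted p = 4.21e-05) and Car12 -1.17 (adjusted p = 0.00666). Among the others called in that fit were Ecrg4, a secreted peptide precursor of choroid plexus with -3.17, the cation channel gene Trpm3 with -1.39, Fxyd1, a regulator of the sodium pump, with -1.23, the tight junction gene Cldn1 with -0.62, and the mitochondrial outer membrane protein gene Tspo with -0.68. These were chosen after their values were seen. Prr32, Col8a1 and Nid2 were also called, with -1.42, -1.02 and -0.67. Sulf1 had -1.38 (adjusted p = 0.000227). In Sulf1 and Nid2, knockout array 1 lay at -1.15 and -0.50, much nearer to the other knockout arrays than it did in Ttr. Whether the amount of choroid plexus in the dissected tissue had a part in these values was not tested.

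**Figure D2:**
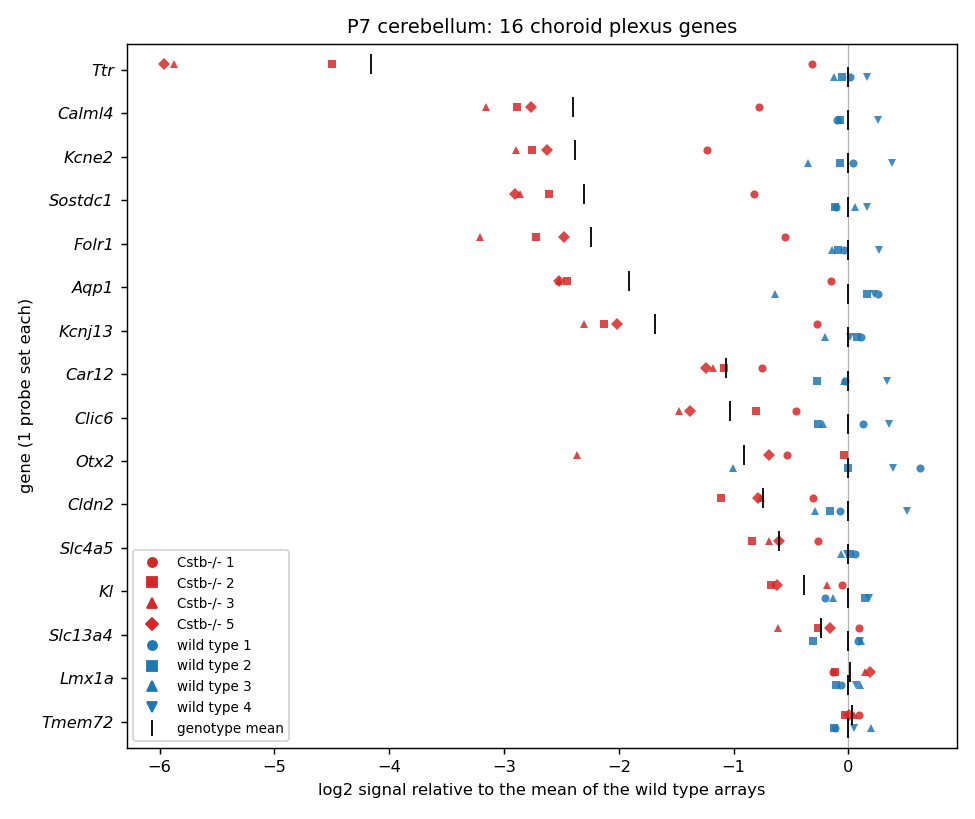
Log2 signal of the 16 measured choroid plexus genes on each P7 array, relative to the mean of the wild type arrays (horizontal axis, log2), sorted by the difference between the genotype means (black ticks). Red points are knockout and blue points wild type arrays. Knockout array 1 (red circle) lies at -0.31 for Ttr, where the other knockout arrays lie between -5.96 and -4.50.

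Neighbouring tissues of the ventricles and the surface had lower values of smaller size. Ependymal cells, which line the ventricles, carry motile cilia. Of 25 genes of motile cilia, 21 had lower values, 7 with an unadjusted p under 0.05, and the median was -0.12. At that p, 5.13% of all genes were lower. Foxj1, the master regulator of motile cilia, had -0.21 (SE 0.10) and Dnah5, a heavy chain of the outer dynein arm, had 0.01 (SE 0.10), both with overlap. Larger differences were found in a few genes. Dynlrb2, a light chain of dynein, had -0.54, -0.88, -1.12 and -0.41 against 0.13, -0.24, 0.08 and 0.04 and a difference of -0.74 (SE 0.15, adjusted p = 0.224). Cfap126, a gene of the ciliary axoneme, had -0.44, -0.57, -0.36 and -0.31 and a difference of -0.42 (SE 0.09, adjusted p = 0.23). Spa17 had -0.57, Enkur -0.42 and Lrrc23 -0.38, also without overlap. In Dynlrb2 and Cfap126 knockout array 5 and not knockout array 1 was the nearest to the wild type arrays, so that the order of the arrays differed from that in Ttr.

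Of 16 genes of meningeal fibroblasts, 13 had lower values and 8 were lower at an unadjusted p under 0.05, against 5.13% of all genes. Their median was -0.14. The small proteoglycan gene Lum had -0.24, -0.34, -0.55 and -0.34 in the knockout arrays and lay between -0.11 and 0.13 in the wild type arrays, a difference of -0.37 (SE 0.08). Col3a1, the chain of type III collagen, had -0.33 (SE 0.08), and both genes had no overlap (adjusted p = 0.272 and 0.269). Dcn, the decorin gene, had -0.03 (SE 0.06). Among 17 basement membrane genes 15 had lower values, with a median of -0.12. Only Nid2 and the laminin chain gene Lamb1 (-0.28, SE 0.09) of these 17 had genotypes without overlap, where 2.86% of all genes were lower without overlap. The type IV collagen genes Col4a1 and Col4a2, which vessels also express, had -0.0025 and -0.12, and the 15 endothelial genes had a median of 0.0026.

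Genes of dividing cells had lower values in nearly all members, each by a small amount. Of 29 mitosis genes 28 had lower values, 8 with an unadjusted p under 0.05 and 5 without overlap, and the median was -0.15. Over all genes, 5.13% were lower at that p and 2.86% lower without overlap. The mean over the list was -0.03, -0.16, -0.22 and -0.16 in knockout arrays 1, 2, 3 and 5 and lay between -0.06 and 0.05 in the wild type arrays, so that the means of the genotypes overlapped. Kif11, the kinesin that pushes the spindle poles apart, had -0.28, -0.19, -0.44 and -0.34 against 0.09, 0.05, -0.14 and -0.0036 and a difference of -0.31 (SE 0.08, adjusted p = 0.328). Cenpe, a kinetochore kinesin, had -0.20 (SE 0.07) without overlap. Mki67, the proliferation marker Ki-67, had -0.19 (SE 0.07), also without overlap. The cyclin-dependent kinase Cdk1 had -0.11 (SE 0.08) and its partner cyclin B2, Ccnb2, had -0.11 (SE 0.08), both with overlap.

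DNA replication genes gave a like picture, with 23 of 27 lower and a median of -0.15. Of these 27, 7 were lower and 1 was higher at an unadjusted p under 0.05, against 5.13% and 5.00% of all genes. Cdc6, which loads the replicative helicase onto origins, had -0.18, -0.32, -0.52 and -0.40 in the knockout arrays and lay between -0.08 and 0.14 in the wild type arrays, a difference of -0.36 (SE 0.09). The helicase subunit genes Mcm2, Mcm3 and Mcm4 had -0.21 (SE 0.09), -0.24 (SE 0.12) and -0.26 (SE 0.08), and of these Mcm4 alone had no overlap. Cdt1, the partner of Cdc6 in origin licensing, had -0.23 (SE 0.08), and Pola1, the catalytic subunit of DNA polymerase alpha, had -0.33 (SE 0.12), both without overlap. Mcm10 was the 1 gene with a higher value at that p (0.18, SE 0.08). None of the mitosis or replication genes passed the adjusted threshold.

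The external granular layer is the main dividing compartment of the P7 cerebellum, and genes of its precursors were examined beside those of division. Of 14 such genes 11 had lower values, and the median was -0.04. Atoh1, the factor that defines the precursors, had -0.02 (SE 0.08) and the Hedgehog effector Gli1 had -0.05 (SE 0.14), with overlap in both. Mycn, which drives their division, had -0.22, -0.22, -0.33 and -0.35 against -0.07, 0.03, 0.11 and -0.08 and a difference of -0.28 (SE 0.07, adjusted p = 0.332). The Hedgehog receptor Ptch1 had -0.31 (SE 0.09, adjusted p = 0.401), and the genotypes were apart on these probe sets of Mycn and Ptch1. The other probe sets of Mycn had 0.04 and 0.10 and those of Ptch1 -0.09 and 0.05, all with overlap.

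Promoters of mitosis and replication genes are shown because these genes had lower values together and carry known short elements. From RefSeq sequence of GRCm38.p6, windows of 300 bases spanning the start of each transcript, most of them upstream, were searched on both strands for TTTGAA, the cell cycle genes homology region, and for TTTNGCG, the core of an E2F site. Of 24 measured mitosis genes with a promoter in this set, 18 held TTTGAA (75.0%), whereas 20.2% of all 27025 genes did so. Of 23 replication genes 12 held TTTNGCG (52.2%), against 4.81% of all genes. A match describes the sequence alone. For each of the following genes, whose genotypes did not overlap, the promoter is printed 5′ to 3′ on the strand of the gene, with the matches in capitals, which appear as TTCAAA or CGCNAAA where they lie on the other strand.
Mki67, chr7:135716330-135716629, minus strand: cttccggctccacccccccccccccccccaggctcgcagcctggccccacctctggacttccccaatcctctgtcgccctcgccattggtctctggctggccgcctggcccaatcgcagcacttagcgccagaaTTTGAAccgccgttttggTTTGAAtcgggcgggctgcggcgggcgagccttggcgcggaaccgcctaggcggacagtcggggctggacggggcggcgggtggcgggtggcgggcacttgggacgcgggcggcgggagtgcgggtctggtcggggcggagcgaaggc
Kif11, chr19:37376132-37376431, plus strand: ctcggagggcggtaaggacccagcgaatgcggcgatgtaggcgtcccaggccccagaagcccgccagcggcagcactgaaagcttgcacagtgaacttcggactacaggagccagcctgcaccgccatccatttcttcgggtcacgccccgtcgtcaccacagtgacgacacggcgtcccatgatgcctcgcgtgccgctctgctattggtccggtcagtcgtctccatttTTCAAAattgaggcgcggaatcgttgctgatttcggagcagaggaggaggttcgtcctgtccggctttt
Cdt1, chr8:122567765-122568064, plus strand: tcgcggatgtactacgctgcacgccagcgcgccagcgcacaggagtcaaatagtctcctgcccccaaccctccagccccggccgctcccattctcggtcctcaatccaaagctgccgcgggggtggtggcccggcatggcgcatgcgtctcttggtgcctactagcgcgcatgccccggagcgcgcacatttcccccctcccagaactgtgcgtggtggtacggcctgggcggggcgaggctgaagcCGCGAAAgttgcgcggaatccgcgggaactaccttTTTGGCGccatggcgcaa
Pola1, chrX:93632106-93632405, minus strand: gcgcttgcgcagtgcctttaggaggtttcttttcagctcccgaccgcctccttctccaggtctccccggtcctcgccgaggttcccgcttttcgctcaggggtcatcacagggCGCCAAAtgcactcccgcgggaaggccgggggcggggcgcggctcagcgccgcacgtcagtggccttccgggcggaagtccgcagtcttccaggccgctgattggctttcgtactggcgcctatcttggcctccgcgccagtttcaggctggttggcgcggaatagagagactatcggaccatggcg
The same windows of 12 choroid plexus genes held TAATCC, a site of OTX factors, in 1 gene, Otx2 itself (8.33%, against 8.14% of all genes). GTTGCCA, part of the site of RFX factors, stood in 3 of 21 motile cilia genes, Tekt1, Mlf1 and Lrrc23 (14.3%, against 5.02% of all genes).

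**Figure D3:**
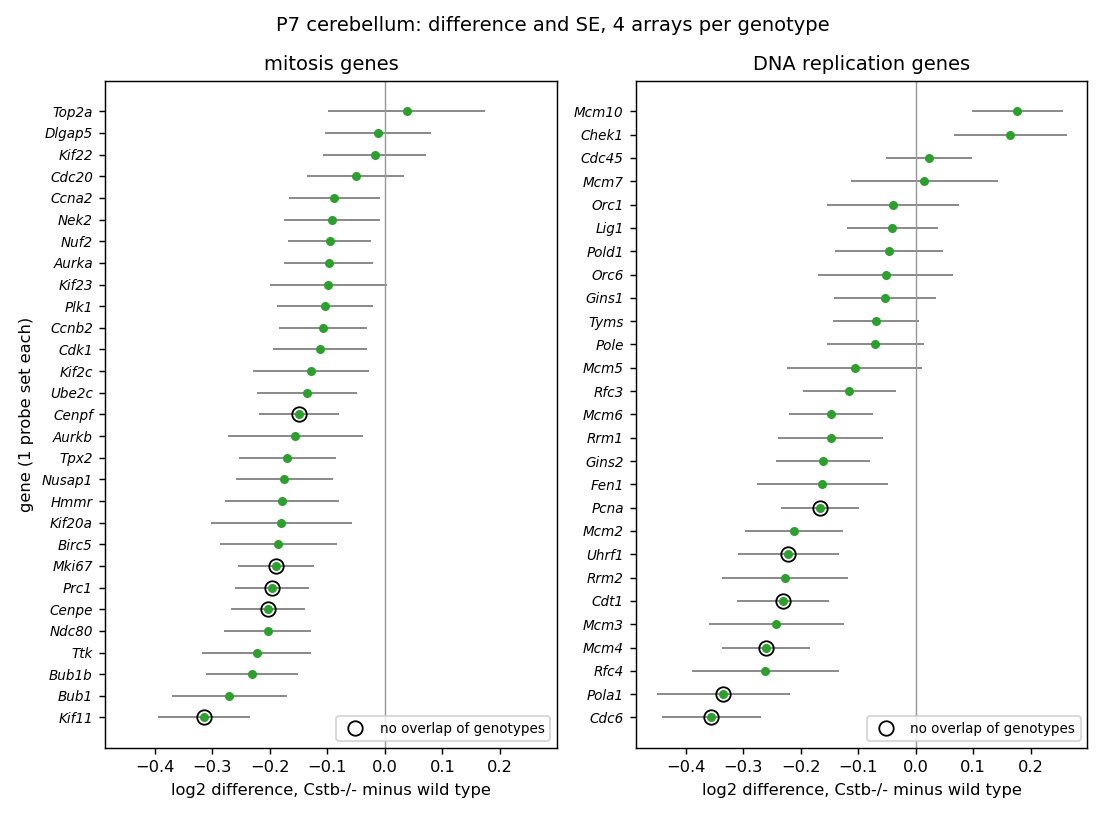
Difference between the genotypes (horizontal axis, log2, Cstb-/- minus wild type) for each of 29 mitosis and 27 DNA replication genes, with 1 probe set per gene. Points are differences of means of 4 arrays per genotype, bars are SE, and open circles mark genes whose genotypes did not overlap. Most points lie below 0, with medians of -0.15 and -0.15, and few lie more than 0.3 below it.

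Genes of myelin-forming oligodendrocytes had higher values in all 17 measured members, against 55.0% of all genes. Of the 17, 13 had an unadjusted p under 0.05 and 6 had no overlap. Over all genes, 5.00% were higher at that p and 3.24% had higher knockout values without overlap. Knockout array 3 stood apart from the other 3 here. The mean over the list was 0.35, 0.37, 0.79 and 0.35 in knockout arrays 1, 2, 3 and 5, and wild type array 3, at 0.23, was the highest of the wild type arrays. Mog, a glycoprotein on the outer face of myelin, had 0.99, 1.08, 1.75 and 0.97 against 0.31, -0.26, 0.43 and -0.48. Mbp, the myelin basic protein gene, had 0.39, 0.60, 0.92 and 0.42 against 0.12, -0.35, 0.14 and 0.09, with wild type array 2 below the rest, and a difference of 0.58 (SE 0.14, adjusted p = 0.277). Mobp, another protein of compact myelin, had 1.03 (SE 0.22) and Mag, an adhesion molecule of the inner myelin face, 0.78 (SE 0.15), without overlap in either. Other members had smaller differences, with 0.14 for Aspa and 0.08 for the gap junction gene Gjb1. The 12 genes of oligodendrocyte precursors had a median of 0.09. The median over the oligodendrocyte genes was 0.35, and none passed the adjusted threshold.

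Markers of neurons mostly had higher values, by amounts that differed between types. Of 16 genes of mature granule neurons 14 had higher values, 5 with an unadjusted p under 0.05, and the median was 0.18. At that p, 5.00% of all genes were higher. Besides Fat2, the GABA-A receptor subunit genes Gabra6 and Gabrd led this list, and both appear late in granule cell maturation. Gabra6 had 0.61, 1.46, 0.97 and 0.70 against -0.31, 0.18, 0.07 and 0.05, with knockout array 2 the highest. Gabrd had 0.40, 0.96, 0.75 and 0.46 against 0.21, -0.13, 0.18 and -0.25, with the same array highest. Their adjusted p were 0.206 and 0.269. Of 15 Purkinje cell genes 11 had higher values, with a median of 0.05. The defining markers Pcp2 and Calb1 had 0.06 (SE 0.10) and 0.05 (SE 0.06) on the probe sets of their gene values. Of the other probe sets of Pcp2, one had 0.34 (SE 0.11) without overlap and one 0.05 (SE 0.09) with overlap, and those of Calb1 lay between -0.21 and 0.32, all with overlap. Besides Pvalb and Gng13, the G protein regulator gene Rgs8 had higher values without overlap (0.57, SE 0.12). Car8 (-0.24) and Foxp2 (-0.30), also of Purkinje cells, had lower values at an unadjusted p under 0.05. Of 12 interneuron genes 10 had higher values, none of them at that p, and the median was 0.09.

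Several genes of cell adhesion and axon guidance were read by name. Of 22 measured genes of the protocadherin beta cluster, which encode adhesion molecules of neurons, 14 were below and 8 above 0. Their median was -0.03, and 3 of them had lower knockout values without overlap, against 2.86% of all genes. In Pcdhb17, Pcdhb16 and Pcdhb22 the value of knockout array 2 was the nearest to wild type. Pcdhb17 had -0.68, -0.28, -0.46 and -0.79, Pcdhb16 -0.59, -0.16, -0.53 and -0.66 and Pcdhb22 -0.50, -0.13, -0.54 and -0.53 in knockout arrays 1, 2, 3 and 5. These genes are similar neighbours, so that their signals may not be independent, and none passed the adjusted threshold. The other probe sets of Pcdhb16 had -0.53 (SE 0.14) and 0.09 (SE 0.09), both with overlap. Slit2, a repellent axon guidance cue, had -0.47, -0.16, -0.37 and -0.73 against -0.09, -0.20, 0.13 and 0.15, where knockout array 2 overlapped the wild type arrays. Its other probe sets had -0.46 (SE 0.11) without overlap and 0.02 (SE 0.08) with overlap. Epha7, an ephrin receptor gene, had -0.03, -0.24, 0.13 and -0.11 and a difference of -0.06 (SE 0.10) on the probe set of its gene value. Another of its 4 probe sets had -0.39 (SE 0.08, adjusted p = 0.241). There the knockout arrays lay between -0.49 and -0.25, below all wild type arrays, and the remaining probe sets had -0.28 and -0.15 with overlap.

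Glial markers other than those of oligodendrocytes gave no common direction. Of 17 genes of astrocytes and Bergmann glia 7 had higher values, and the median was -0.06. Vim, the intermediate filament vimentin of radial and Bergmann glia, had -0.34, -0.31, -0.32 and -0.31 in the knockout arrays and -0.01, -0.01, -0.04 and 0.06 in the wild type arrays. The values of each genotype lay within 0.11 of each other, and the difference was -0.32 (SE 0.06, adjusted p = 0.209). Its other probe sets had -0.35 (SE 0.10) without overlap and -0.10 (SE 0.13) with overlap. S100b, a calcium-binding protein of glia, had 0.39, 0.41, 0.69 and 0.26 against 0.16, -0.22, 0.03 and 0.03 and a difference of 0.44 (SE 0.11). Gfap, the filament of astrocytes, had 0.42, 0.50, 0.70 and 0.32 against 0.35, 0.18, -1.10 and 0.57, and the low value of wild type array 3 stood beside a difference of 0.49 (SE 0.29). Aqp4, the water channel of astrocyte endfeet, had 0.06 (SE 0.10). Of 17 microglial genes 13 had higher values, with a median of 0.07, and no gene had genotypes without overlap. Over all genes, 3.24% were higher and 2.86% lower without overlap. The defining markers Aif1 and Cx3cr1 had 0.12 (SE 0.12) and -0.03 (SE 0.08). The mean over the microglial list was 0.04, -0.05, 0.02 and 0.23 in knockout arrays 1, 2, 3 and 5, with array 5 above the rest.

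Genes of the cathepsin family, which holds the targets of cystatin B, had a median near 0. Among 15 cathepsin genes, 7 had higher values and the median was -0.02. Ctsb and Ctsl, which encode cathepsins B and L, targets of cystatin B, had 0.11 (SE 0.09) and -0.08 (SE 0.08). The second probe set of Ctsl had 0.19 (SE 0.08) without overlap (adjusted p = 0.519). The other probe sets of Ctsb lay between -0.01 and 0.14, all with overlap. Ctsc, the cathepsin that activates granule serine proteases, had -0.22, -0.39, -0.45 and -0.49 against -0.14, -0.12, 0.19 and 0.07, without overlap, and a difference of -0.39 (SE 0.09, adjusted p = 0.292), while its other probe sets had -0.06 and -0.09 with overlap. Ctso, a little-studied cathepsin, had 0.18 (SE 0.07). Of 13 cystatin family genes, Cstb included, 10 had higher values. The stefin gene Stfa3, a close relative of Cstb, had 0.15 (SE 0.08), and the kininogen gene Kng1 had 0.14, 0.10, 0.15 and 0.44, where knockout array 5 stood above the others, and a difference of 0.21 (SE 0.08). None of them but Cstb passed the adjusted threshold.

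Genes of the unfolded protein response, which raises the folding capacity of the endoplasmic reticulum, had lower values in 15 of 18 members. Of the 18, 7 were lower at an unadjusted p under 0.05, against 5.13% of all genes. The chaperone genes Hspa5 and Hsp90b1 had -0.33 (SE 0.09) and -0.38 (SE 0.10), and Manf, a secreted factor of this response, had -0.33 (SE 0.09). All 3 had no overlap, and in each knockout array 5 had the lowest value, with -0.47, -0.62 and -0.54. Atf4, a transcription factor of this response, had -0.24, -0.25, -0.41 and -1.08, with knockout array 5 far below the other knockout arrays. Ddit3, the stress-induced factor CHOP, had 0.06 (SE 0.09) with overlap. The mean over the list was -0.28 in knockout array 5, the array with the widest spread, against between -0.13 and -0.08 in the other knockout arrays.

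**Figure D4:**
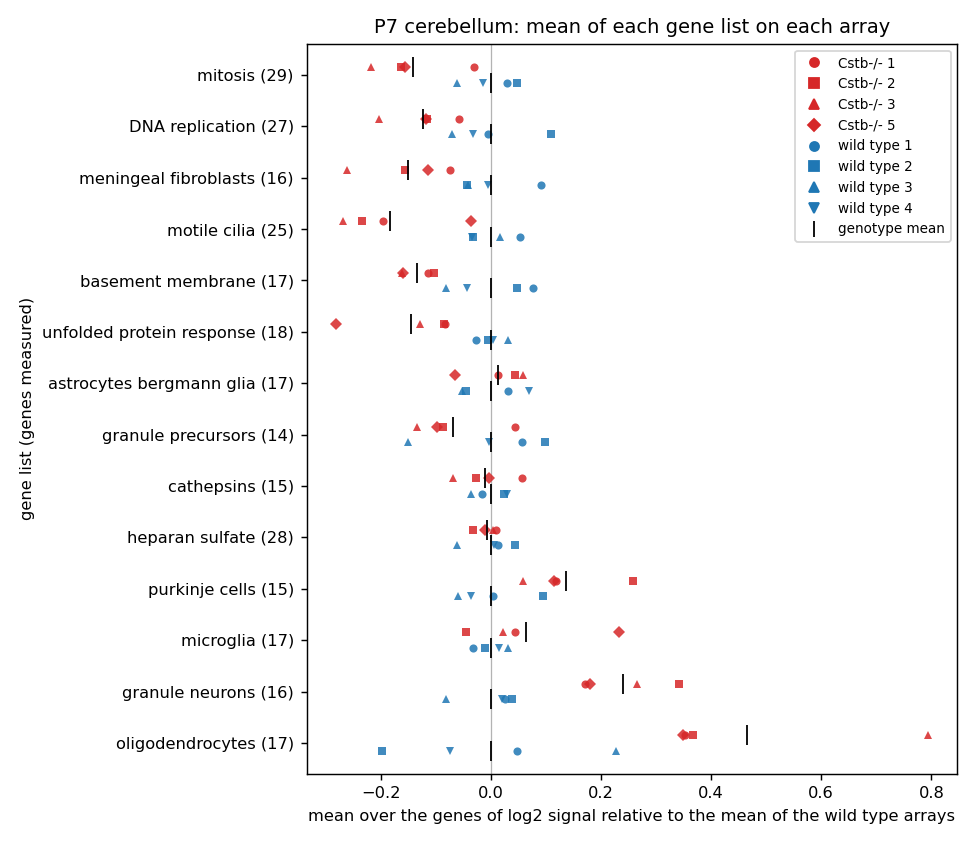
Mean over the genes of each list of the log2 signal on each P7 array, relative to the mean of the wild type arrays (horizontal axis, log2), with the number of genes measured after each list name. Red points are knockout arrays, blue points wild type arrays and black ticks the genotype means. The oligodendrocyte mean of knockout array 3 lies at 0.79 and those of the other knockout arrays at 0.35 to 0.37, and the granule neuron means of the genotypes do not overlap.

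Genes of presynaptic release, the machinery that docks and fuses synaptic vesicles, had higher values in 20 of 23 members, 10 with an unadjusted p under 0.05 and 8 without overlap, against the 3.24% of all genes given above. Their median was 0.18, close to that of the granule neuron genes, and none passed the adjusted threshold. Those with the smallest p, chosen after their values were seen, were the vesicle fusion protein gene Vamp1 with 0.43, 0.21, 0.27 and 0.37 in knockout arrays 1, 2, 3 and 5, and Rab3a, a small GTPase of synaptic vesicles, with 0.24, 0.31, 0.42 and 0.27. Their differences were 0.32 (SE 0.09) and 0.31 (SE 0.09). Of the lists not yet described, higher medians were found in potassium channels (0.13 over 32), calcium channels (0.11 over 19) and axonal and neurofilament genes (0.10 over 20). The medians were 0.05 for interferon response, 0.08 for apoptosis and -0.04 for antioxidant genes. No gene among the 19 interferon or 15 apoptosis genes was without overlap, and 2 of 20 antioxidant genes were lower without overlap. Over all genes, 3.24% were higher and 2.86% lower without overlap. Immediate early genes had a median of 0.06 and red blood cell genes one of -0.04.

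Single arrays stood at the ends of many differences. Among the 383 lower probe sets past the fold with an unadjusted p under 0.05, knockout array 5 had the lowest value in 268. The value nearest to the wild type mean was that of knockout array 1 in 178 and of knockout array 2 in 158. Among the 211 higher ones, knockout array 3 had the highest value in 107, and knockout array 5 had the value nearest to the wild type mean in 85. With the labelled sex as a covariate 1108 probe sets were called (2.46%), 212 higher and 896 lower. In that fit the difference is averaged over the sexes, so that knockout array 5, the sole knockout female, and wild type array 3, the sole wild type male, each weigh as much as the other 3 arrays of their genotype together, and these are the arrays with the widest spread. Whether the larger count came from removing a sex effect or from these arrays was not tested. Control probe sets for 18S ribosomal RNA also stood apart on knockout array 5, with a mean of 3.39 against -0.40 to 0.64 on the other arrays. Sex-linked genes went with the sex labels on all 8 arrays, since Xist, the RNA that silences the X chromosome, lay between -5.51 and -5.33 on the male and between 1.51 and 2.07 on the female arrays, and the Y-linked Eif2s3y and Kdm5d lay at 3.62 to 3.72 and 1.68 to 1.98 on the male arrays and below 0 on the female arrays.

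Whether the genotype differences at P7 differed from those at P30, when the mice have symptoms, was tested next. The P30 cerebella, on 3 knockout and 3 wild type arrays, had their own controls. The labels give knockout array 1 at P30 as female and the other 5 as male, whereas the methods call all P30 mice males, and sex was not in the fit. The difference of the genotype differences was tested in limma. Of 45037 probe sets 57 differed (0.127%), 3 with a higher and 54 with a lower knockout effect at P7. Across 18193 genes, which are not independent replicates, Pearson's r between the differences at P7 and at P30 was 0.0432.

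Read on the 1 leading probe set of each gene named here, 6 genes had a P7 effect that differed from that at P30. Klk1 had 0.63 at P7 and -0.12 (SE 0.07) at P30 (adjusted p = 0.028 for the difference). Nid2 had -0.63 and 0.26 (SE 0.13, adjusted p = 0.0408), and Vim had -0.32 and 0.50 (SE 0.11, adjusted p = 0.00547), so that both had lower values at P7 and higher values at P30. Within each age alone, neither gene passed the adjusted threshold in limma. The adjusted p at P7 and P30 were 0.0855 and 0.697 for Nid2 and 0.209 and 0.2505 for Vim. The complement genes C1qa and C1qc, made by microglia, had 0.18 and 0.09 at P7 but 1.83 (SE 0.12) and 1.76 (SE 0.09) at P30 (adjusted p = 2.92e-05 and 6.06e-07). Ctsc had -0.39 and 1.34 (SE 0.18, adjusted p = 0.0011). On the other probe sets of Ctsc and Klk1 the difference between the ages did not pass (adjusted p from 0.306 to 0.94). Of the other probe sets of Vim, 1 passed (adjusted p = 0.0144) and 1 did not (adjusted p = 0.2685). For Sulf1 the values were -1.32 at P7 and 0.51 (SE 0.38) at P30, and the difference did not pass (adjusted p = 0.11). The same held for Gabra6, with 0.94 and 0.02 (SE 0.07, adjusted p = 0.158), for Pvalb, with 0.72 and 0.01 (SE 0.07, adjusted p = 0.126), and for the leading probe set of Gfap, with 0.49 and 2.15 (SE 0.09, adjusted p = 0.128). The other probe sets of Gfap did pass, with 0.50 at P7 and 2.36 at P30 on one (adjusted p = 0.0144) and -0.06 and 1.75 on the other (adjusted p = 0.00282). So did 1 of the 3 probe sets of Cnp, with 0.54 and -0.21 (adjusted p = 0.0401). Agt had nearly equal values at both ages, 0.45 and 0.42 (SE 0.09). Ttr had -3.80 (SE 1.49) and Kcne2 -1.09 (SE 0.90) at P30, and for neither did the difference from P7 pass (adjusted p = 0.964 and 0.673).

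**Figure D5:**
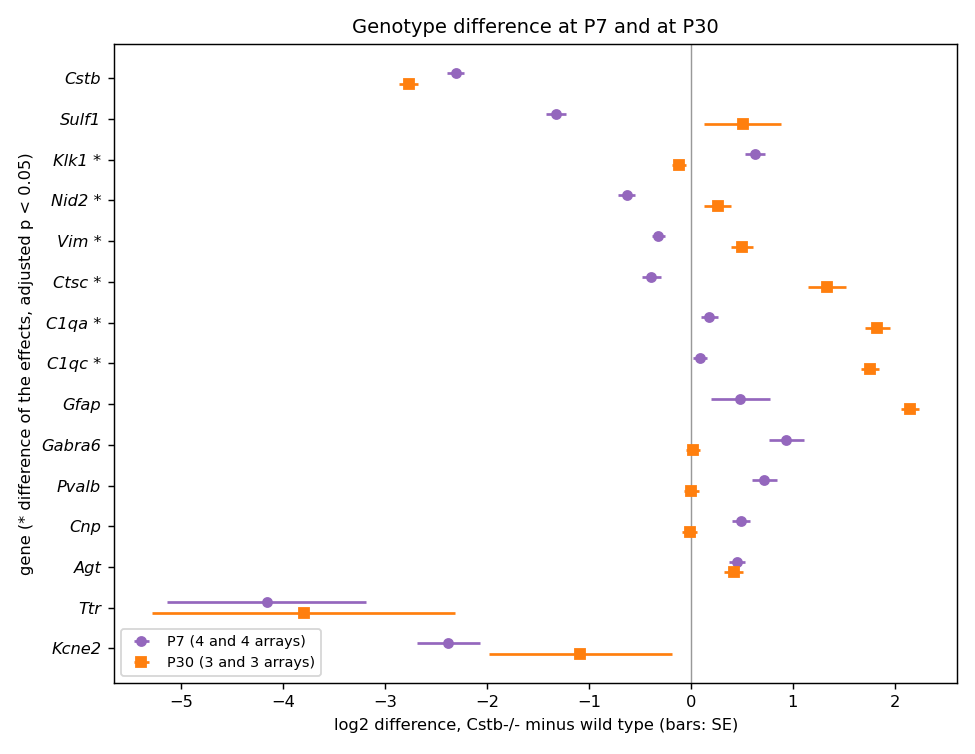
Difference between the genotypes (horizontal axis, log2, Cstb-/- minus wild type) at P7 (purple circles) and P30 (orange squares) for 15 genes, with SE as bars. Stars mark the 6 genes whose effects differed between the ages in limma on the probe set shown. C1qa lies at 0.18 at P7 and at 1.83 at P30, whereas Cstb lies below -2 at P7 and is also below 0 at P30.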

How the data were processed

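RNA of whole cerebellum had been measured on 8 arrays, 4 Cstb-/- and 4 wild type, grouped by GEO's labels. Per the methods, the authors normalized the scans with RMA in GeneSpring GX and scaled every gene to its median, and the deposited values are log2 signals whose medians of 0, found in the values, show that this was done within each experiment. Levels and background were thus not kept, and the number of arrays limits the precision. The methods count mice, and pooling is not described. The authors left 1 more P7 array of each genotype out of their analysis after a principal component check of grouping by genotype.

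Differences were fitted with limma 3.58.1 in R 4.3.3 (lmFit, eBayes) over the 45037 probe sets that are not Affymetrix controls. A gene took the probe set with the lowest number among those with its symbol alone (18193 genes). Names come from the platform annotation. The fits were tested on simulated data. The genes named are those past both thresholds, the 10 higher and 10 lower with the smallest p past the fold and without overlap, the first 2 measured members of each list described and the 2 with the largest t, and 7 read by name. Others named were chosen after their values were seen. Members and gene lists were chosen with earlier results of these data known. The replicate numbers 1, 2 and 3 did not pair the samples. Alternatives were sex as a covariate or split, the replicate block, the methods' t-test, robust variances, array weights, no fold threshold, 1 fit over all groups, gene values averaged over probe sets, and each array left out. Leaving out both arrays of widest spread was added after seeing the data.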

Additional observations from a re-analysis of the deposited data

Results flagged for a closer look

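Of 190 groups of 4 arrays examined, 19 held an array that stood apart from the other 3 of its genotype by Dixon's test, where chance gives about 1 in 20. In knockout array 1, Kcne2 had -1.23 (the other knockout arrays -2.90 to -2.62) and Gli1 0.0842 (the others -0.10 to -0.08). Knockout array 3 had 1.75 for Mog and a mean of 0.79 over the oligodendrocyte genes. Knockout array 5 had 0.44 for Kng1, and knockout array 2 had -0.13 for Pcdhb22. Wild type array 3 had 0.22 for Klk1, -0.32 for Mcm3, -0.27 for Ctsb, 0.25 for Pcdhb16 and a mean of -0.0827 over the granule neuron genes, wild type array 2 had -0.35 for Mbp, and wild type array 1 had 0.13 for Dnah5.

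The other such values went with sex, since knockout array 5 and wild type array 3 are the sole female and the sole male of their genotypes. Xist had 1.51 in knockout array 5 and -5.51 in wild type array 3. Eif2s3y had -1.10 and 3.62, and Kdm5d had -0.46 and 1.75, in the same order. For Gfap the genotype difference in males minus that in females was 1.69, which in males rests on wild type array 3 at -1.10.

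The P7 minus the P30 difference passed limma's test, on the leading probe set of each gene, for Klk1 (0.75), Nid2 (-0.89), Vim (-0.82), C1qa (-1.65), C1qc (-1.67) and Ctsc (-1.72). Control probe sets for 18S ribosomal RNA, which entered no comparison, had a mean of 3.39 in knockout array 5 and -0.40 to 0.64 on the other arrays.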

How the results depend on the processing

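The 3 probe sets called changed became 1108 with sex as a covariate, 1 with the methods' t-test and 203 with that test adjusted among those reaching the fold, 17 with array weights, 16 in 1 fit over all groups and 20 without the 2 arrays of widest spread, and 3 to 38 when each array was left out. The changed genes, 1 at first since the gene value of Sulf1 came from another of its probe sets, became 4 with the mean of all probe sets, 430 with sex, 7 without the 2 wide arrays, and 1 to 23 when each array was left out. Robust variances and no fold threshold left 3 probe sets. Without the 2 wide arrays, all knockout arrays were from males and all wild type arrays from females. Genotype and sex could therefore not be told apart in that fit. Its calls held the sex-linked Xist (-7.26) and Eif2s3y (4.89) beside Cstb and Sulf1. With the replicate number as a block, 2 probe sets and 2 genes were called, and Sulf1 was no longer called. No same-numbered pairing is given by the labels. The 57 probe sets that differed between P7 and P30 became 44 to 60 when each P7 array was left out.

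Of the 78 probe sets that lead the named genes, 30 that had not passed the threshold did so with sex as a covariate, and 5 changed sign in that fit: Atoh1 (0.0693), Gli1 (0.0956), Pcp2 (-0.045), Aqp4 (-0.0893) and Col4a1 (0.0982). Among the female arrays Atoh1 (0.0698), Gfap (-0.0462), Aqp4 (-0.0438), Col4a1 (0.0439) and Ctsb (-0.0076) changed sign. Among the male arrays Atoh1 (0.0687), Gli1 (0.428), Pcp2 (-0.188), Aqp4 (-0.135), Aif1 (-0.127), Cx3cr1 (0.141), Col4a1 (0.153), Mcm3 (0.139), Ddit3 (-0.0868), Xist (0.0862) and Epha7 (0.123) did so. The block turned Cx3cr1 (0.017), Dnah5 (-0.0383) and Ddit3 (-0.0304), array weights turned Dnah5 (-0.0013), and leaving out the wide arrays turned Dnah5 (-0.0447) and Ctsl (0.0326). With each array left out, values spanned 0 for Atoh1 (-0.069 to 0.0242), Col4a1 (-0.0664 to 0.0385), Cx3cr1 (-0.0754 to 0.0198), Ddit3 (-0.0077 to 0.107), Dnah5 (-0.0604 to 0.0786) and Gli1 (-0.204 to 0.0609). Of the 36 list medians, 4 changed sign with sex as a covariate. The causes were not tested.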
